A study of Mus musculus with 7 samples.

Results

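A set of 10 genes that make, break down or convert sphingomyelin and ceramide were followed in TRAMP-C1 cells: Smpd1, Smpd2, Smpd3, Smpd4, Asah1, Asah2, Ugcg, Sgms1, Sgms2 and Cers2. They are 10 of 46603 genes in the deposited tables and were found by symbol. The set was chosen by the level of Smpd3, which differed strongly between fusion and empty vector libraries and also between empty vector and WT libraries. The Smpd3 values of these comparisons are therefore a description, with no test. All 10 genes passed the filter on low counts. TRAMP-C1 is a prostate epithelial tumour line from the C57BL/6-TgN(TRAMP)8247Ng strain, whose transgene causes prostate tumours. The groups were 3 libraries of cells given a lentivirus with the PAX8-NFE2L2 fusion, 3 libraries of cells given the matching empty vector, and 1 library named WT, whose label names no vector. Transduced cells had 12 h with virus and a further 24 h in fresh medium before RNA isolation, and the sources used here do not say whether transduced cells were selected. PAX8 controls genes of the thyroid and kidney, and NFE2L2 encodes NRF2, which turns on antioxidant and detoxification genes.

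Sphingomyelin is a major lipid of the plasma membrane, and sphingomyelinases split it into ceramide and phosphocholine. Ceramide can be broken down by ceramidases to sphingosine, which sphingosine kinases turn into the signalling lipid sphingosine 1-phosphate. It can also be turned back into sphingomyelin by sphingomyelin synthases, or into glucosylceramide, the base of most glycosphingolipids. Ceramide is commonly linked with growth arrest and cell death and sphingosine 1-phosphate with survival and migration, so the enzymes between them are studied in tumours.

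Reads assigned to genes lay between 26368182 and 55114667 in fusion libraries, between 40089266 and 59597170 in empty vector libraries, and at 52859158 in the WT library. The shallowest library was fusion replicate 3. Levels are given in CPM, read counts scaled by library size and by TMM factors over the 7 libraries. Pax8 lay at 6.40, 8.53 and 5.57 CPM in fusion replicates 1, 2 and 3, against 0.0334, 0.0358 and 0.217 CPM with empty vector and 0.0401 CPM in WT. Nfe2l2 averaged 136 ± 11.9 CPM with the fusion and 119 ± 7.14 CPM with empty vector (SD, n = 3 each) and lay at 120 CPM in WT. Pax8 thus separated the fusion libraries from the others as their labels do. The WT library lay within the empty vector range, so Pax8 does not check those 2 labels against each other. Defining epithelial markers were scarce: Epcam stayed between 0.0895 and 0.53 CPM over the 7 libraries, and the prostate genes Pbsn and Hoxb13 never passed 0.0748 CPM. The summed level of 7 mesenchymal markers, Vim and Col1a1 among them, ranged from 8007 to 12648 CPM with the fusion, from 7919 to 13453 CPM with empty vector and stood at 14791 CPM in WT. Immune markers summed to at most 3.37 CPM and endothelial markers to at most 0.822 CPM in any library. Whether replicates are separate cultures is not stated, and the spread behind each p-value may therefore be technical.

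Smpd3 was the enzyme that set the groups apart. It encodes a neutral sphingomyelinase of the plasma membrane and Golgi that is known for its part in the release of exosomes and in bone and cartilage mineralization. Smpd3 (ENSMUSG00000031906.8, chromosome 8:106252548-106337988, minus strand, GRCm38) lay at 101, 108 and 63.8 CPM in fusion replicates 1, 2 and 3. With empty vector it lay at 4.96, 4.42 and 5.9 CPM, and in the WT library at 34.7 CPM. The groups did not overlap: every fusion library was above the WT library, and every empty vector library was below it. Fusion replicate 3 was the lowest of its group. The level averaged 91.0 ± 23.8 CPM with the fusion and 5.09 ± 0.746 CPM with empty vector (SD, n = 3 each). The fitted log2 difference between fusion and empty vector was 4.16 (SE 0.28), a 17.9-fold higher level. Matched by replicate number, the differences of log2(CPM + 0.1) were 4.32, 4.58 and 3.41. Replicates 1 and 2, which came from the same sequencing lanes as the WT library, gave a fitted log2 difference of 4.49 without the libraries numbered 3. Between empty vector and WT the fitted log2 difference was -2.77 (SE 0.32). The mean fusion level was 2.62 times the WT level, and the mean empty vector level was 0.147 times the WT level. WT had 1 library, so this spread is taken from the other groups. In bulk RNA, more cells that express a gene and more RNA per cell cannot be told apart.

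**Figure D1:**
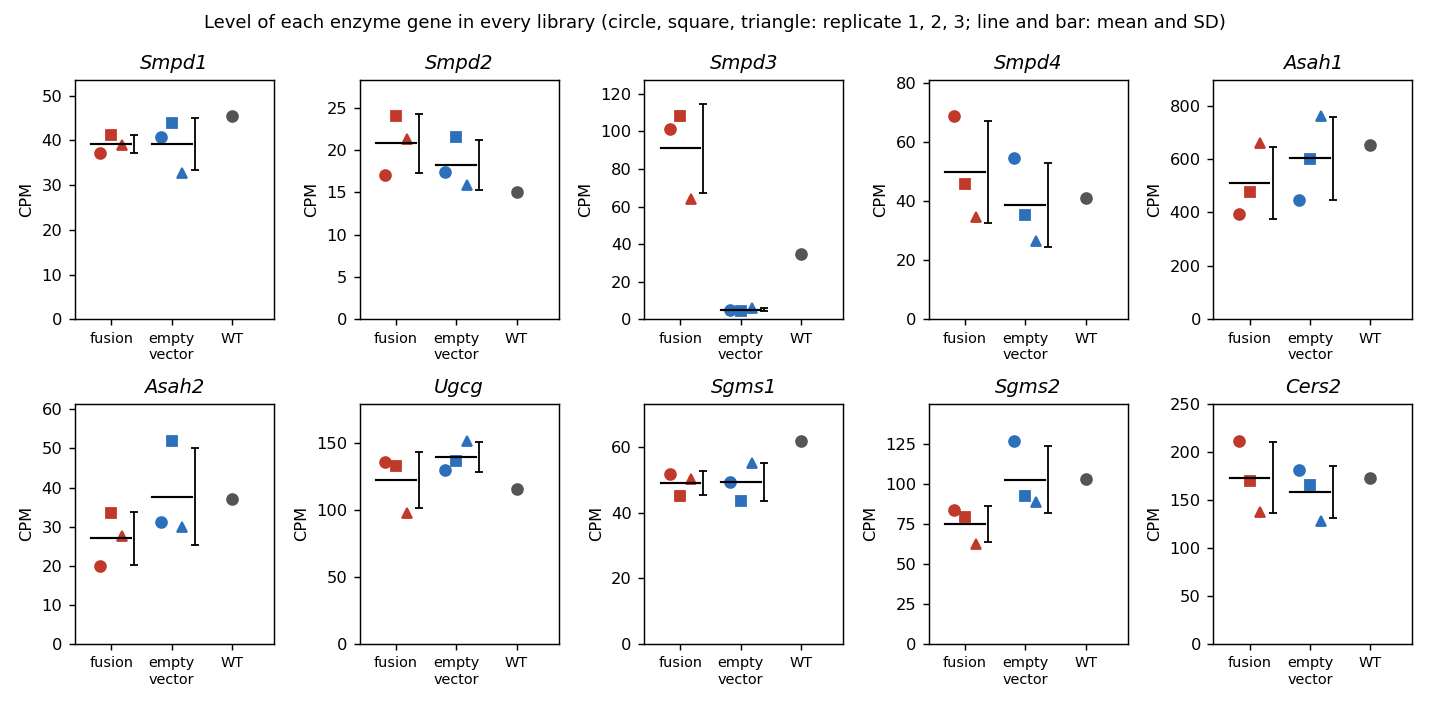
Level in CPM (vertical axis, from 0) of each of the 10 enzyme genes in fusion, empty vector and WT libraries; each point is a library, its shape gives the replicate number, and lines and bars show the mean and SD of 3 libraries. Smpd3 separates the groups at 63.8 to 108 CPM with the fusion, 4.42 to 5.9 CPM with empty vector and 34.7 CPM in WT, while the fusion and empty vector libraries of Smpd1, Smpd2, Smpd4, Asah1, Asah2, Ugcg, Sgms1 and Cers2 overlap.

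The 3 nearest tested genes on either side of Smpd3 on chromosome 8 did not share its difference in size. Smpd3 shares 247 of its 5232 exon bases (4.72%) with Prmt7, an arginine methyltransferase gene on the other strand. Reads from such shared bases cannot be assigned to a strand here. Prmt7 lay at 93.6, 87.3 and 69.8 CPM in fusion replicates 1, 2 and 3, against 80, 90.4 and 63.6 CPM with empty vector and 76.4 CPM in WT, so its groups overlapped. Its log2 fold change was 0.10 (95% interval -0.39 to 0.59, edgeR quasi-likelihood adjusted p = 0.977). Over the 3 nearest tested genes on either side (Slc7a6os, Prmt7, Gm26786, Zfp90, Cdh3 and Gm10073), log2 fold changes between fusion and empty vector ran from -0.38 to 0.65. None of these 6 passed (edgeR; 1, Cdh3, had an unadjusted p under 0.05, and DESeq2 called none). Of all tested genes, edgeR called 2.04%, 10.9% had an unadjusted p under 0.05, and DESeq2 called 5.51%. With 6 genes, such counts are too few to be read against these shares. Cdh3, which encodes P-cadherin, was the highest at 157, 154 and 110 CPM with the fusion against 110, 96.9 and 60.9 CPM with empty vector and 95.3 CPM in WT. Cdh3 passed with the replicate number as a block (log2 fold change 0.68, edgeR adjusted p = 0.00684), as did 13.1% of all tested genes. Of the 6, only Slc7a6os had every fusion library above every empty vector library (log2 fold change 0.24). Over all tested genes, 15.8% had no overlap in either direction. Outside the 6, Cdh1 starts at 106603351 and was low, at most 3.52 CPM. Its log2 fold change was 1.55 (edgeR adjusted p = 0.227, and 0.022 with the block).

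The other sphingomyelinase genes showed small differences. Smpd1 (ENSMUSG00000037049.8, chromosome 7:105554360-105558389) encodes the acid sphingomyelinase of lysosomes. It lay at 37.3, 41.3 and 39.0 CPM with the fusion, against 40.8, 44.0 and 32.8 CPM with empty vector and 45.4 CPM in WT. These libraries overlapped, with a log2 fold change of 0.00 (95% interval -0.44 to 0.44, edgeR adjusted p = 1.00). Smpd2 (ENSMUSG00000019822.11, chromosome 10:41485642-41490369, minus strand) encodes another neutral sphingomyelinase. It lay at 17.1, 24.0 and 21.3 CPM with the fusion, against 17.4, 21.6 and 15.9 CPM with empty vector and 15.0 CPM in WT. With a log2 fold change of 0.19 (-0.33 to 0.70), Smpd2 did not pass (edgeR adjusted p = 0.936), and 20.3% of its exon bases are shared with Mical1 on the other strand. Smpd4 (ENSMUSG00000005899.11, chromosome 16:17619354-17644828) encodes a neutral sphingomyelinase of the endoplasmic reticulum and nuclear envelope. It lay at 68.7, 45.9 and 34.7 CPM in fusion replicates 1, 2 and 3, against 54.5, 35.2 and 26.6 CPM in empty vector replicates 1, 2 and 3 and 40.9 CPM in WT. The groups overlapped, but each fusion library was above the empty vector library of its number, by 0.33, 0.38 and 0.38 on a log2(CPM + 0.1) scale. Smpd4 did not pass without the replicate block (log2 fold change 0.36, -0.42 to 1.14, edgeR adjusted p = 0.887). It rose with the block (0.37, 0.17 to 0.56, edgeR adjusted p = 0.0332).

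Smpd3 made up a different share of the sphingomyelinase transcripts in each group, while the sum of the other 3 genes stayed in a narrow range. Per kb of exon, Smpd1, Smpd2 and Smpd4 together held 22.6, 22.8 and 20.3 CPM per kb with the fusion, against 22.1, 21.9 and 16.3 with empty vector and 21.5 in WT. With Smpd3 added the sums were 42.0, 43.5 and 32.5 CPM per kb with the fusion, against 23.1, 22.7 and 17.4 with empty vector and 28.1 in WT. Smpd3 made up 46.1, 47.5 and 37.5% of the sum with the fusion, against 4.11, 3.72 and 6.46% with empty vector and 23.6% in WT. Smpd1 held 26.7 to 36% with the fusion, against 52.9 to 57.9% with empty vector and 48.4% in WT. The shares depend on the length used. With the longest transcript in place of all exons, Smpd3 made up 37.1, 39.5 and 30.5% with the fusion. It then made up 2.93, 2.74 and 4.8% with empty vector and 18% in WT. Smpd1 then held 29.2, 32.3 and 39.8% with the fusion, more than Smpd3 in fusion replicate 3. These shares contain the Smpd3 values that chose the group and carry no test.

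**Figure D2:**
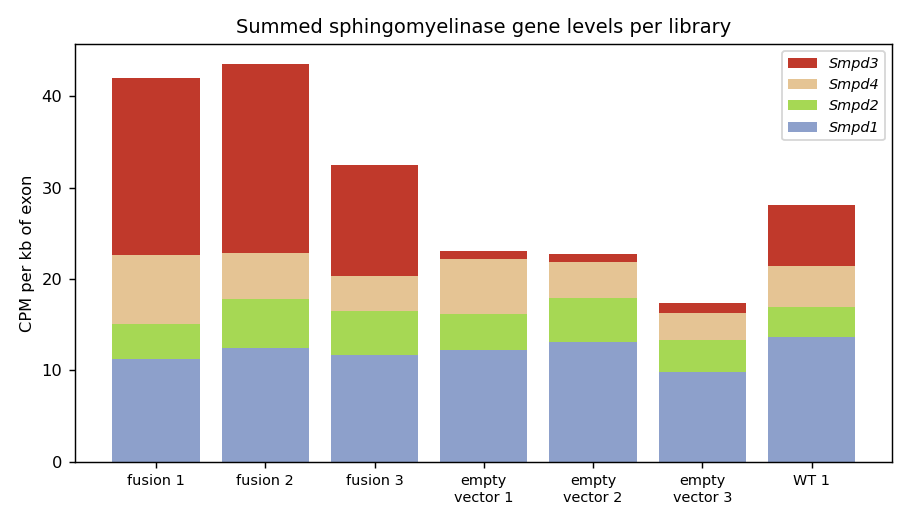
Stacked levels of the 4 sphingomyelinase genes in CPM per kb of exon (vertical axis, from 0), one bar for each library. The bars reach 32.5 to 43.5 with the fusion, 17.4 to 23.1 with empty vector and 28.1 in WT, and the parts of Smpd1, Smpd2 and Smpd4 add up to 16.3 to 22.8 in every bar.

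Both ceramidase genes lay lower with the fusion in every numbered pair and neither passed. Asah1 (ENSMUSG00000031591.13, chromosome 8:41340197-41374773, minus strand) encodes the acid ceramidase of lysosomes. It lay at 395, 475 and 660 CPM in fusion replicates 1, 2 and 3, against 447, 601 and 760 CPM in empty vector replicates 1, 2 and 3 and 651 CPM in WT. Asah1 spread more within each group than between the group means, and the groups overlapped. Its log2 fold change was -0.24 (95% interval -0.88 to 0.40, edgeR adjusted p = 0.930), and -0.24 (-0.43 to -0.05, adjusted p = 0.0973) with the replicate block. Asah2 (ENSMUSG00000024887.9, chromosome 19:31982597-32108211, minus strand) encodes the neutral ceramidase. It lay at 20, 33.4 and 27.6 CPM with the fusion, against 31.2, 52.0 and 29.8 CPM with empty vector and 37.0 CPM in WT. Empty vector replicate 2 was the highest library. Asah2 had a log2 fold change of -0.48 (-1.15 to 0.19, edgeR adjusted p = 0.698), and of -0.47 with the replicate block (adjusted p = 0.0658). Without the libraries numbered 3 the block fit gave -0.63 (adjusted p = 0.00286).

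Of the enzymes that use ceramide, Sgms2 was the one whose fusion and empty vector libraries did not overlap. Sgms2 (ENSMUSG00000050931.7, chromosome 3:131318985-131491411, minus strand) encodes the sphingomyelin synthase found mainly at the plasma membrane. It lay at 83.6, 79.2 and 62.2 CPM with the fusion, against 127, 92.5 and 88.5 CPM with empty vector and 103 CPM in WT. Every fusion library was below every empty vector library. Without the replicate block Sgms2 did not pass (log2 fold change -0.45, 95% interval -0.96 to 0.06, edgeR adjusted p = 0.552). Sgms2 fell with the block (-0.44, -0.68 to -0.21, edgeR adjusted p = 0.0321). Sgms1 (ENSMUSG00000040451.16, chromosome 19:32122727-32389714, minus strand), the Golgi sphingomyelin synthase, lay at 51.9, 45.0 and 50.4 CPM with the fusion, against 49.3, 43.5 and 55.1 CPM with empty vector and 62.0 CPM in WT. Its log2 fold change was -0.01 (-0.44 to 0.43, edgeR adjusted p = 0.999). Ugcg (ENSMUSG00000028381.8, chromosome 4:59189257-59222833) encodes glucosylceramide synthase, the first enzyme of most glycosphingolipid synthesis. It lay at 136, 133 and 98.1 CPM with the fusion, against 130, 137 and 152 CPM with empty vector and 116 CPM in WT. Fusion replicate 3 was the lowest library, the groups overlapped, and Ugcg did not pass (log2 fold change -0.19, -0.65 to 0.27, edgeR adjusted p = 0.916). Without the libraries numbered 3 it was 0.03. Cers2 (ENSMUSG00000015714.10, chromosome 3:95314791-95323599), a ceramide synthase that adds very long acyl chains, makes ceramide instead. It lay at 212, 170 and 138 CPM with the fusion, against 181, 166 and 128 CPM with empty vector and 173 CPM in WT. The log2 fold change was 0.13 (-0.40 to 0.67, edgeR adjusted p = 0.969), and 2.04% of its exon bases are shared with Setdb1 on the other strand.

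Counted over the 9 genes other than Smpd3, 0 rose and 0 fell between fusion and empty vector, where 2.04% of the 16731 tested genes were called, 1.69% as higher and 0.353% as lower (edgeR quasi-likelihood test, adjusted p under 0.05). None of the 9 had an unadjusted p under 0.05, as 10.9% of all genes did, and DESeq2 called none of them and 5.51% of all genes. The fit with the replicate number as a block called 1 higher (Smpd4) and 1 lower (Sgms2), beside 13.1% of all tested genes under that fit, 7.63% as higher and 5.5% as lower. With 9 genes, 2 calls (22.2%) are too few to be read against that background. The median log2 fold change of the 9 was -0.01, against 0.01 over all tested genes. Fusion and empty vector libraries did not overlap for 1 of the 9 (Sgms2, lower), against 15.8% of all tested genes, 6.65% as lower. In all 3 numbered pairs 2 of the 9 lay higher with the fusion (Smpd4 and Cers2), as did 27.8% of all genes. Another 3 lay lower in all 3 pairs (Asah1, Asah2 and Sgms2), as did 24.6% of all genes.

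**Figure D3:**
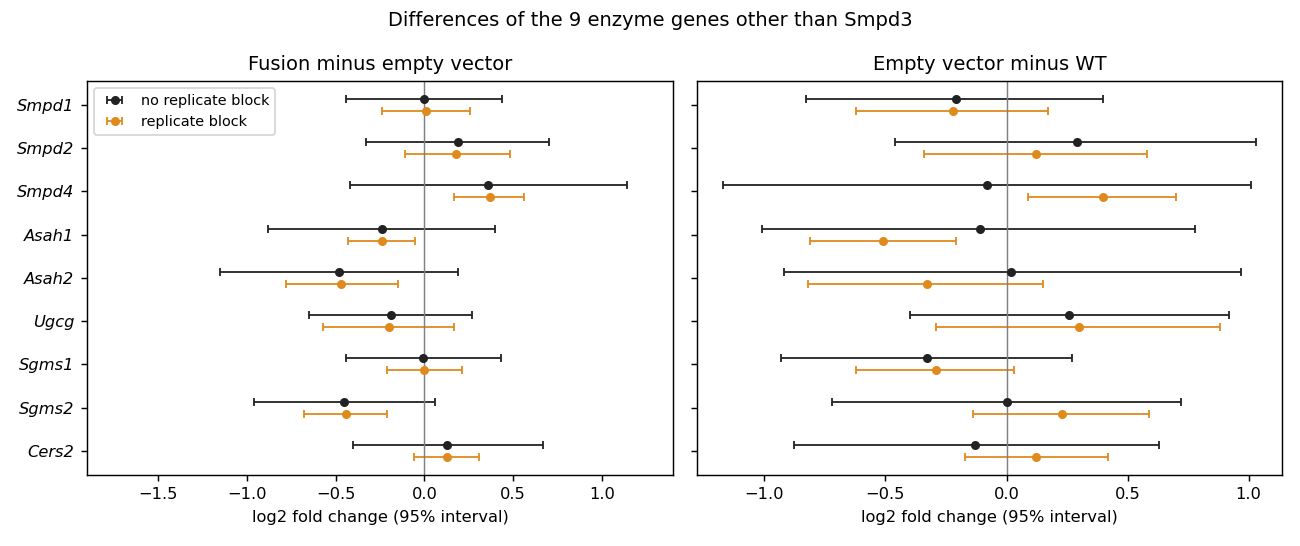
Fitted log2 fold changes with 95% intervals (horizontal axis) of the 9 enzyme genes other than Smpd3, for fusion minus empty vector on the left and empty vector minus WT on the right, without and with the replicate number as a block. In the left panel the intervals without the block all include 0, and Sgms2 and Smpd4 lie at -0.44 and 0.37 with the block.

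Empty vector and WT were compared to see whether these enzymes differed between vector-carrying cells and the WT library. Apart from Smpd3, given above, the log2 fold changes of the 9 genes ran from -0.33 for Sgms1 to 0.29 for Smpd2, with a median of -0.08 against 0.01 over all tested genes. None passed, as for all 16731 genes (edgeR adjusted p under 0.05, 0% called); 0 of the 9 had an unadjusted p under 0.05, as 4.46% of all genes did, and DESeq2, which called 0.46% of all genes, called none of them. With the replicate block, which called 0.12% of genes, none of the 9 passed and 2, Asah1 and Smpd4, had an unadjusted p under 0.05, as 20.2% of all genes did. Asah1 then had a log2 fold change of -0.51 (95% interval -0.81 to -0.21, edgeR adjusted p = 0.105). Smpd4 had 0.40 (0.09 to 0.70, adjusted p = 0.165). The intervals without the block reach furthest for Smpd4 (-1.17 to 1.01), Smpd2 (-0.46 to 1.03) and Asah1 (-1.01 to 0.78), so differences of about that size would not be detectable with 1 WT library. The comparison shares its empty vector libraries with the comparison of fusion and empty vector. In the fit with the block, the WT library was set with the libraries numbered 1 because of its title. Whether WT belongs with them was not checked, so the block values of Asah1 and Smpd4 lean on the libraries numbered 1. Empty vector replicate 1 had 447 CPM of Asah1 against 651 CPM in WT, and 54.5 CPM of Smpd4 against 40.9 CPM in WT.

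Per length, the order of the enzymes was led by Asah1 in every group. It stood at 150 CPM per kb with the fusion, 178 with empty vector and 192 in WT, and its libraries lay above those of every other member. Cers2 followed at 47.2, 43.1 and 47.0 CPM per kb, and Ugcg at 23.5, 26.8 and 22.3, in fusion, empty vector and WT libraries in that order. Smpd3 had rank 4 of 10 with the fusion at 17.4 ± 4.55 CPM per kb, rank 10 with empty vector at 0.974 ± 0.143 (SD, n = 3 each), and rank 6 in WT at 6.63. With the longest transcript in place of all exons, its ranks were 4, 10 and 8 in fusion, empty vector and WT libraries in that order, and Sgms1 stood at 12.2 instead of 4.66 CPM per kb with the fusion. Over all exons, the fusion libraries of Smpd3 overlapped those of Ugcg above and Sgms2 below in the order, and Sgms2 overlapped Smpd1. Smpd4 overlapped Smpd2, and Smpd2 overlapped Sgms1, with the fusion. With empty vector Sgms1 overlapped Smpd4, Smpd4 overlapped Smpd2, and Smpd2 overlapped Asah2. With empty vector every Smpd3 library lay below every Asah2 library, the next in the order. Over the 7 libraries Smpd3 spanned 4.58 on the log2(CPM + 0.1) scale, and the other 9 spanned 0.47 (Smpd1) to 1.37 (Smpd4 and Asah2).

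Among the other genes of sphingolipid metabolism, a sphingosine 1-phosphate exporter rose. A ganglioside synthase gene was also called, but its fusion libraries alone brought it past the filter on low counts. A list of 61 such genes, from serine palmitoyltransferase to sphingosine 1-phosphate receptors and glycosphingolipid hydrolases, was looked up. Of these, 60 were found, and 50 passed the filter on low counts; the 10 others stayed at or under 0.167 CPM, 2 of them with 0 counts in every library. Between fusion and empty vector 2 rose and 0 fell (edgeR adjusted p under 0.05), 4% beside 2.04% of all genes. The 2 were Spns2 and St8sia1. St8sia1 was tested only because of its fusion libraries, and the list was made with earlier results of these data known, so this count is a description. With the replicate block 4 rose and 4 fell, 16% beside 13.1%. The median log2 fold change of the 50 was -0.02, against 0.01 over all tested genes. By role, the 7 tested genes of early de novo synthesis ran from -0.36 to 0.45, the 6 genes of ceramide transfer, phosphorylation and other ceramidases from -0.47 to 0.61, and the 11 genes of glycosphingolipid breakdown from -0.32 to 0.47. The 7 ceramide synthases and desaturases had a wider range, from -1.11 (Cers4) to 1.19 (Cers1, at or under 1.01 CPM in every library). The remaining sphingomyelinase relatives, 3 of them tested, lay between -0.82 and -0.02, and none of the genes in these roles passed with edgeR without the replicate block, while DESeq2 called 1 (Cers4). Between empty vector and WT none passed (edgeR, 0% of all genes called). Of the 50, 2 had an unadjusted p under 0.05, as 4.46% of all genes did. DESeq2 and the fit with the block also called 0 of the 50, beside 0.46% and 0.12% of all genes, and 15 of the 50 had an unadjusted p under 0.05 with the block, beside 20.2% of all genes.

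Spns2 (ENSMUSG00000040447.14, chromosome 11:72451638-72489904, minus strand) encodes the transporter that carries sphingosine 1-phosphate out of cells. It lay at 36.3, 60.6 and 27.2 CPM with the fusion, against 0.685, 1.54 and 2.12 CPM with empty vector and 0.862 CPM in WT. The WT library lay among the empty vector libraries, and every fusion library lay far above both. The log2 fold change was 4.85 (SE 0.50, 95% interval 3.70 to 6.00, edgeR adjusted p = 0.00327), with adjusted p-values of at most 0.0202 in all 12 alternatives. Spns2 shares 131 exon bases (3.21%) with Mybbp1a on the other strand, which lay at 709, 422 and 246 CPM with the fusion, against 605, 378 and 195 CPM with empty vector. Mybbp1a did not pass (log2 fold change 0.23, edgeR adjusted p = 0.977). St8sia1 (ENSMUSG00000030283.6, chromosome 6:142821545-142964452, minus strand) encodes the sialyltransferase that makes ganglioside GD3. It had 51, 48 and 19 counts with the fusion, against 0, 1 and 2 counts with empty vector and 8 counts in WT, or 0.972, 0.879 and 0.711 CPM against 0, 0.0179 and 0.0481 CPM and 0.16 CPM. St8sia1 passed the filter on low counts only through the fusion libraries, so a difference was built into its being tested. The level was low everywhere, the fusion libraries did not overlap the others, and WT lay above all empty vector libraries. Pooled over libraries the ratio was 46.2 with a 95% exact binomial counting interval of 15.4 to 227. The separate edgeR fit gave a log2 fold change of 5.28 (adjusted p = 0.00765). Over the 12 alternatives the adjusted p of St8sia1 was at most 0.0479. Given how it came to be tested, these p-values are a description and no independent support. Intervals from counts cover counting error only.

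The calls that appeared with the replicate block went both ways and, apart from Cers4, were at most 0.56 in size. Psap, which encodes the saposin activators of lysosomal sphingolipid breakdown, lay at 1065, 1343 and 851 CPM with the fusion, against 819, 974 and 555 CPM with empty vector and 987 CPM in WT. It rose with the block by a log2 fold change of 0.49 (edgeR adjusted p = 0.0166; 0.678 without the block). S1pr3, a sphingosine 1-phosphate receptor, lay at 63.8, 96.4 and 46.3 CPM with the fusion, against 45.8, 58.1 and 33.4 CPM with empty vector and 65.6 CPM in WT. It rose with the block by 0.56 (adjusted p = 0.0127; 0.617 without). Cers4, a ceramide synthase, lay at 3.26, 2.27 and 4.98 CPM with the fusion, against 8.47, 7.63 and 6.45 CPM with empty vector and 8.6 CPM in WT. It had a log2 fold change of -1.17 with the block (adjusted p = 0.0497; 0.19 without) and was also called by DESeq2 (adjusted p = 0.0256). Another 3 genes fell with the block: Acer3, an alkaline ceramidase (-0.46, edgeR adjusted p = 0.0284), Sgpp1, a sphingosine 1-phosphate phosphatase (-0.40, adjusted p = 0.0348), and Sptssa, a small subunit of serine palmitoyltransferase (-0.37, adjusted p = 0.0314). The sphingosine kinase gene Sphk1 had a log2 fold change of -0.00 (95% interval -0.60 to 0.59, edgeR adjusted p = 0.999).

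**Figure D4:**
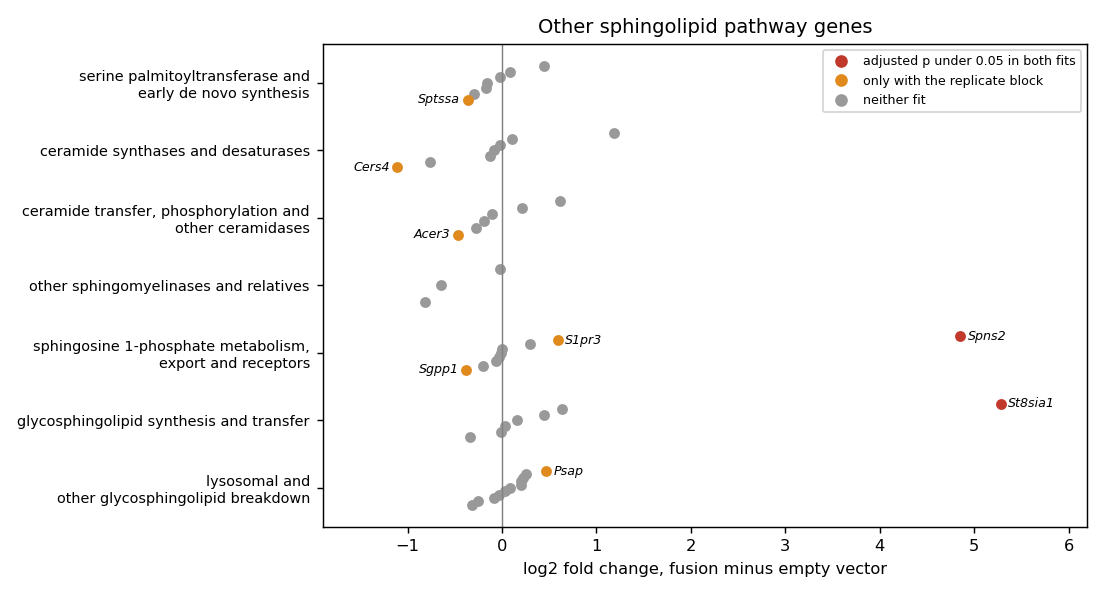
Log2 fold changes between fusion and empty vector (horizontal axis) of the 50 tested sphingolipid pathway genes outside the 10 enzymes, in rows by role; colours give whether the adjusted p was under 0.05 in both fits, only with the replicate block, or in neither. Spns2 at 4.85 and St8sia1 at 5.28 stand far to the right, and the 6 genes called only with the block lie between -1.11 and 0.59.

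Because NRF2 binds antioxidant response elements, promoter windows from 250 bases before to 50 bases after each RefSeq gene start (GRCm38.p6) were searched on both strands for the core TGACNNNGC. The windows matched 8 of the 10 enzymes; Smpd3 and Asah1 were not matched. Of these 8, only Ugcg held the core, and over all promoters 14% of genes and 12.4% of the 32851 windows held it. Of 53 matched pathway genes 6 held it: Cers3, Galc, Hexa, Mfsd2b, Psap and Sphk1. Windows are shown for the genes that rose, Spns2 and St8sia1, and for the enzyme and the block-called gene that held the core, Ugcg and Psap. They are chr11:72474978-72475277 (minus strand), chr6:142964403-142964702 (minus strand), chr4:59189300-59189599 and chr10:60277378-60277677 (both plus strand), written 5′ to 3′ on the gene's strand. Capitals mark a match of the core, read on the opposite strand in both genes. Its first base lies at -164 from the RefSeq gene start for Ugcg and at -20 for Psap. The Ugcg match lies after the gene start placed above, not before it.
Spns2: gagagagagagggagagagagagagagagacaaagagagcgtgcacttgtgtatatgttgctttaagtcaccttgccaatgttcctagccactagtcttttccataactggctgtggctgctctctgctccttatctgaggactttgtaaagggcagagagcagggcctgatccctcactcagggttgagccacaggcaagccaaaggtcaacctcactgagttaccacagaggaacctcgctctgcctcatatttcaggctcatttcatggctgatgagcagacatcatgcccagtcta
St8sia1: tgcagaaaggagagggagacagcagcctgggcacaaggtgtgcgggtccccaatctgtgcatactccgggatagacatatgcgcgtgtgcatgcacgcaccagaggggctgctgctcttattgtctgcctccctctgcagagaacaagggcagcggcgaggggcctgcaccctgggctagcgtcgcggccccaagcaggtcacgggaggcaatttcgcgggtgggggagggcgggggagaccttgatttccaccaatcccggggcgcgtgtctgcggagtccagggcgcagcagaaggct
Ugcg: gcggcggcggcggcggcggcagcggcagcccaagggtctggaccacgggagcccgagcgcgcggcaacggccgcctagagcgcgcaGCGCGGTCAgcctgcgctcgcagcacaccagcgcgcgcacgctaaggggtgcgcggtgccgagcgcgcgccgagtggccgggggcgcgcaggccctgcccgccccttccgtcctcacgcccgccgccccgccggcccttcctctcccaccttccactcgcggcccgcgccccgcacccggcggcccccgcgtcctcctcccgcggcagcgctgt
Psap: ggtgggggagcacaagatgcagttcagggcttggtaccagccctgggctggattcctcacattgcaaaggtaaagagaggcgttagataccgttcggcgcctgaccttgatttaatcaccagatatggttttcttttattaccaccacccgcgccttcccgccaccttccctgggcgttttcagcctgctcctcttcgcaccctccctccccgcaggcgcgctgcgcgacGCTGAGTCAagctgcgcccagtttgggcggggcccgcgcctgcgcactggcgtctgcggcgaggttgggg
The windows of Spns2 and St8sia1 have no capitals, which says only that these letters are not in these windows. The Spns2 and Ugcg windows lie inside the genes as placed above, so the sequence before their annotated 5′ ends was not searched. The same holds for the windows of Asah2, Cers2 and Sgms1. Psap had another window, chr10:60284211-60284510, without the core.

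The genes whose levels most resembled those of Smpd3 were picked over the same 7 libraries, WT included. A WT level between the groups is therefore favoured by the choice and is no separate result. By Pearson correlation of log2(CPM + 0.1) among 1461 tested genes that spanned at least 0.5 of the range of Smpd3, the first 5 were Spsb4, a ubiquitin ligase adaptor (r = 0.981), Smco4, a small membrane protein (0.972), St8sia1 (0.971), Cryab, a small heat shock chaperone (0.969), and Sh3rf3, a RING-type ubiquitin ligase (0.967). The points are the same 7 libraries for each gene, and the values only describe likeness. Cryab lay at 51.8, 81.2 and 57.9 CPM with the fusion, against 14.3, 13.0 and 13.8 CPM with empty vector and 55.9 CPM in WT, so its WT library stood among the fusion libraries. Sh3rf3 lay at 50.8, 55.5 and 37.5 CPM with the fusion, against 5.71, 4.6 and 7.08 CPM with empty vector and 11.6 CPM in WT. Smco4 lay at 10.3, 12.9 and 8.83 CPM with the fusion, against 1.97, 3.04 and 2.26 CPM with empty vector and 5.39 CPM in WT. Spsb4 was low, at 1.07, 0.989 and 0.935 CPM with the fusion, against 0.234, 0.125 and 0.265 CPM with empty vector and 0.661 CPM in WT.

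**Figure D5:**
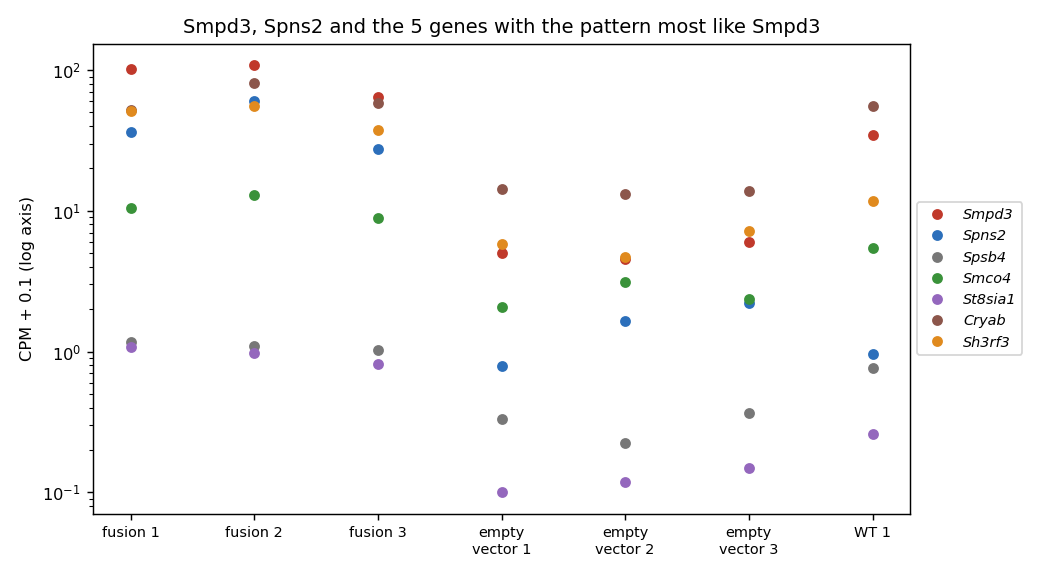
Levels of Smpd3, Spns2 and the 5 genes most like Smpd3 in each library, as CPM + 0.1 on a log axis. In Smpd3, Spsb4, Smco4, St8sia1 and Sh3rf3 the WT point lies above the empty vector points and below the fusion points, in Cryab at 55.9 CPM it lies among the fusion points, and in Spns2 at 0.862 CPM among the empty vector points.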

How the data were processed

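Polyadenylated RNA was sequenced as single-end 50 bp reads, per the labels' protocols. The deposited values are raw read counts per gene in 12 lane tables; STAR, HTSeq and GRCm38 are named in the submitters' processing notes, while their versions, the annotation and the strand setting were not given in the sources used here. Lanes were summed into 7 libraries after a check that lanes of a library differed by sampling noise only (chi-square per degree of freedom 0.978 to 1.01). Multiply aligned reads (36.1 to 45.32%), reads outside genes (5.726 to 6.927%) and ambiguous ones (1.222 to 1.479%) stayed out. Libraries numbered 1 and 2 and WT were run on lanes 5 and 6; the third fusion library used lane 2 and the third empty vector library lane 1. Symbols, positions and exon lengths (union of exons) come from GENCODE M21 of GRCm38.

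Tests used edgeR 4.0.16 in R 4.3.3 (TMM, filterByExpr with a minimum count of 10, robust quasi-likelihood F test, Benjamini-Hochberg over 16731 genes, threshold 0.05), on 6 libraries for fusion and empty vector and on 7 for empty vector and WT. SE is the log2 fold change over the root of F. Code was tested on simulated data. Alternatives were DESeq2 1.42.0, its size factors, no filter, each library left out, replicates 1 and 2 only and a replicate block. Same-numbered fusion and empty vector libraries deviated together from their group means (r = 0.574, 0.53 and 0.504 over genes). Other pairs had r from -0.46 to -0.0493. Deviations cancel within a group of 3, so positive values for some pairs bring negative ones for others, and this contrast is partly built in. These values are the only source of the pairing. The WT library was put with the libraries numbered 1 by its title alone. The members and lists were chosen with earlier results of these data known. Named genes were the members, pathway genes that passed, the 5 genes most like Smpd3, 3 neighbours on each side and Pax8 and Nfe2l2; genes called only with the block, Sphk1 and overlapping genes were named after their values were seen.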

Additional observations from a re-analysis of the deposited data

How the results depend on the processing

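Spns2 and St8sia1 kept their direction and their calls in all 12 alternatives, with log2 fold changes of 4.46 to 5.49 for Spns2 and 4.66 to 6.42 for St8sia1. St8sia1 had passed the filter only through its fusion libraries, so its calls are no independent support. The fitted values of St8sia1 rest on 3 empty vector counts: its main value was 5.28, against 4.66 without empty vector replicate 1 and 6.27 without empty vector replicate 3. Smpd3 had a log2 difference between fusion and empty vector of 4.02 to 4.36 when 1 library was left out and of 4.49 with replicates 1 and 2 only, without and with the block; between empty vector and WT it was -2.89 to -2.65. With 1 library left out, 0 of the 9 other enzymes and 2 pathway genes were called each time. The replicate block called 2 of the 9 enzymes and 8 of the 50 pathway genes, beside 2196 of all 16731 tested genes. The block on replicates 1 and 2 only called 3 of the 9 (Smpd4, Asah2 and Sgms2) and 14 of the 50, beside 3275 of all 16731. The block changed no other call of the 9 enzymes. Over all genes 341 were called between fusion and empty vector, against 2196 with the block, 3275 with the block on replicates 1 and 2, 922 by DESeq2, 530 without the filter and 139 to 373 with 1 library left out (204 and 154 without fusion replicates 1 and 2, 139 without empty vector replicate 2). Between empty vector and WT 0 were called, against 20 with the block, 77 by DESeq2 and 15 without the filter.

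Changes of sign occurred only in values that passed no test. Between fusion and empty vector, Smpd1 (main value 0.00) was -0.01 with DESeq2 and with its size factors, -0.04 without the filter and -0.09 with replicates 1 and 2, without and with the block, and -0.11 to 0.09 with 1 library left out. Sgms1 (-0.01) was 0.08 and Ugcg (-0.19) was 0.03 with replicates 1 and 2, without and with the block. With 1 library left out Sgms1 ranged from -0.09 to 0.08 and Cers2 (0.13) from -0.04 to 0.27. Between empty vector and WT, the block gave 0.40 for Smpd4 (-0.08), -0.33 for Asah2 (0.02), 0.23 for Sgms2 (-0.00) and 0.12 for Cers2 (-0.13). There the WT library was set with the libraries numbered 1 by its title alone. Sgms2 was 0.01 with DESeq2 and with its size factors and 0.02 without the filter. Without the libraries numbered 3 Smpd4 was 0.13, Sgms2 0.09 and Cers2 0.01. With 1 empty vector library left out, Asah1 (-0.11) ranged from -0.31 to 0.09, Smpd4 from -0.38 to 0.13, Asah2 from -0.25 to 0.17, Sgms2 from -0.16 to 0.09 and Cers2 from -0.21 to 0.01. The cause was not tested. With 3 libraries a group and 1 WT library, differences of the size of these intervals are not detectable.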
